A study of Mus musculus with 4 samples.

Results

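The genes described here are the 3 TET dioxygenases (Tet1, Tet2 and Tet3) and 6 DNA glycosylases (Tdg, Smug1, Neil1, Neil2, Neil3 and Mbd4). They were chosen by symbol, and all 9 were among the 25239 gene symbols of the deposited count tables. The cells were mouse embryonic stem cells (mESC) with the genotype Ogt fl/fl, in which loxP sites flank the gene of O-GlcNAc transferase. They were grown with LIF in a serum-replacement medium, on mouse embryonic fibroblasts that mitomycin C had stopped from dividing. The Ogt iKO group held 2 libraries from cells kept for 6 days with 4-hydroxytamoxifen (4-OHT), the ligand that triggers the deletion. The control group held 2 libraries from Ogt fl/fl cells kept for the same 6 days without it. YFP-positive cells were selected in the 4-OHT group alone, and no group received 4-OHT with Ogt intact, so the deletion, the ligand and this selection cannot be told apart. The labels give each library a replicate number but do not say that replicates were separate cultures, so p-values measure the spread between these samples, which may be technical.

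TET enzymes use iron, oxygen and 2-oxoglutarate to oxidise 5-methylcytosine stepwise to 5-hydroxymethyl-, 5-formyl- and 5-carboxylcytosine. Thymine DNA glycosylase, the product of Tdg, cuts out the last 2 of these forms, and base excision repair then fills the gap with an unmodified cytosine. MBD4 and SMUG1 remove thymine or uracil and related bases from mispairs left by deamination, and the NEIL glycosylases remove oxidised bases and open the DNA strand at the site. TET1 and TET2 are known as the main TET enzymes of mouse embryonic stem cells, whereas TET3 is known from the oocyte and the zygote. TET proteins are known to bind OGT, and the study asked how loss of OGT bears on cytosine methylation and hydroxymethylation. Messenger RNA levels of the enzymes are described here, not their activity.

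The RefSeq table of promoters on GRCm38.p6, the assembly that mm10 names, matched 8 of the 9 genes, all but Neil2. The bases just before the start that this table gives each TET gene are shown because these 3 genes moved in different directions and because CpG, the dinucleotide on which TET enzymes act, differs in number between them. CpG is in capitals, each run is on the minus strand from 5′ to 3′, and each reaches back from that start to the nearest exon of the GENCODE annotation on either strand, or for 100 bases.
Tet1, chr10:62887325-62887412: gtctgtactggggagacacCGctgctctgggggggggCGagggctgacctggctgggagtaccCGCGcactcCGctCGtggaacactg
Tet2, chr3:133544391-133544490: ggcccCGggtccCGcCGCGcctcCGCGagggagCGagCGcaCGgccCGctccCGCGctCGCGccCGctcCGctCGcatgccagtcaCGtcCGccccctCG
Tet3, chr6:83441679-83441754: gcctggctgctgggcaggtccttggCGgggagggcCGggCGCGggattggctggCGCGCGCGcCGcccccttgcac
The 250 bases before the start held 51 CpG in Tet2, 17 in Tet3 and 15 in Tet1, against a median of 6 over 32851 promoters of the same length. Of these promoters 99.9% held fewer than Tet2, 76.5% fewer than Tet3 and 72.7% fewer than Tet1. Mbd4, with 22, and Tdg, with 19, held more than Tet3 and Tet1. All 3 windows held the GC box GGGCGG on either strand, a motif found in 32.7% of all promoters, and Tet3 alone of the 3 held CCAAT (33.8% of all promoters). None of the 3 windows held CACGTG (6.02% of all promoters), CCGGAAG (6.91%), ATTTGCAT (1.6%) or TATAAA (12.4%), searched on both strands; the GC box can overlap CpG. Each gene has 1 start in this table, which lies inside the whole RefSeq span given for the gene with its values, since that span opens further upstream in all 3. Which starts these cells used was not measured. An antisense gene, B230319C09Rik, begins within the Tet3 window on the opposite strand and had 2 and 0 counts in Ogt iKO and 0 and 1 in control.

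Deposited gene counts summed to between 14668489 and 16504204 per library. Ogt itself had 191 and 203 CPM (counts per 1000000 counts, scaled by the trimmed mean of M-values, TMM) in control and 25.6 and 25.1 CPM in Ogt iKO, or 12.9% of control. All 10 embryonic stem cell markers examined, among them Pou5f1, Sox2 and Nanog, had counts in every library, with a summed level of 4568 CPM in each control and of 2434 and 2778 CPM in Ogt iKO. All 14 markers of feeder fibroblasts were also detected in every library, none at 0. Their summed level was 1080 and 1219 CPM in control, 2649 CPM in Ogt iKO replicate 1 and 649 CPM in Ogt iKO replicate 2. Values without Ogt iKO replicate 1 are therefore given beside the members below. The sum did not hold for every marker. In Ogt iKO replicate 2, 12 of the 14 lay below both controls. Fbln1 (79.6 CPM, controls 59.3 and 57.6 CPM) and Pdgfrb (15.8 CPM, controls 5.49 and 7.89 CPM) lay above both.

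Of the 9 genes, 8 passed the filter on low counts. Tet3 was higher in Ogt iKO, Tet1, Tet2, Neil1, Smug1 and Neil3 were lower, and Neil2 and Mbd4 did not pass the threshold (edgeR quasi-likelihood test, Benjamini-Hochberg adjusted p under 0.05 over all 14525 genes tested). Of all genes tested, 65.3% were called in this comparison, 33.2% higher and 32.0% lower, so 6 called genes of 8 is close to the background and is no result about these genes as a set. The libraries of the 2 groups did not overlap for 7 of the 8 genes, against 83.2% of all genes tested. Of the 7, 2 lay higher and 5 lower, where 42.3% and 40.9% of all genes tested did so. The median log2 fold change of the 8 was -0.56, against 0.024 over all genes tested. Markers of other cell states moved with these genes. By the same test 9 of the 10 stem cell markers were lower, and all 8 markers of the 2-cell-like state that the files list were higher, with a summed level of 34.6 and 22.4 CPM in control and 135 and 146 CPM in Ogt iKO. Of 6 epiblast markers 5 were lower and 1 higher, and their sum was 1175 and 1143 CPM in control and 676 and 747 CPM in Ogt iKO. Of 9 tested markers of trophectoderm and endoderm 4 were higher (Eomes, Hand1, Gata4 and Sox17) and 1, Tfap2c, was lower, while Elf5 was at 0 in all libraries but Ogt iKO replicate 1. Their sum was 109 and 106 CPM in control and 64.1 and 55.5 CPM in Ogt iKO, of which Tfap2c alone made up 86.3 and 84.2 CPM and 17.6 CPM in each, so the sum fell through Tfap2c while the 4 others called went the opposite way. The part of these states in the values of the TET and glycosylase genes was not tested. Of the 14 feeder markers, 2 were higher by the same test (Fbln1 and Pdgfrb), 0 were lower and 12 did not pass the threshold. In RNA from a bulk of cells, fewer cells that express a gene and less RNA per cell cannot be told apart.

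Tet1 lies on chromosome 10 from 62804570 to 62887469 and had the most counts of the 9 genes. Its level was 588 and 752 CPM in the control libraries and 361 and 357 CPM in the Ogt iKO libraries. Both Ogt iKO libraries lay below both controls and almost coincided, while the controls stood apart from each other. Controls averaged 670 CPM ± 116 (SD, n = 2), against 359 CPM ± 2.80 (SD, n = 2) for Ogt iKO, 53.5% of control. Tet1 thus had a log2 fold change of -0.90 (SE 0.10, edgeR adjusted p 0.000102). It was -0.90 without Ogt iKO replicate 1, the library with the most feeder transcripts, and -0.72 without control replicate 2.

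Tet2, on chromosome 3 from 133463677 to 133545136, fell further. Its protein lacks the CXXC zinc finger with which TET1 and the long form of TET3 bind unmethylated CpG. Tet2 had 67.7 and 89.7 CPM in control and 26.6 and 29.3 CPM in Ogt iKO, and the groups did not overlap. Against a control mean of 78.7 CPM ± 15.6 (SD, n = 2), Ogt iKO had 27.9 CPM ± 1.92 (SD, n = 2), or 35.5% of it. The log2 fold change of Tet2 was -1.50 (SE 0.13, edgeR adjusted p 2.78e-05), and -1.42 without Ogt iKO replicate 1.

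Tet3, on chromosome 6 from 83362373 to 83457208, was the only one of the 8 tested genes to rise past the threshold under TMM scaling. It had 25.2 and 26.3 CPM in control and 64.4 and 65.0 CPM in Ogt iKO, so both replicate pairs were close and the groups lay far apart. Ogt iKO averaged 64.7 CPM ± 0.413 (SD, n = 2), which is 251% of the control mean of 25.7 CPM ± 0.760 (SD, n = 2). Tet3 had a log2 fold change of 1.33 (SE 0.078, edgeR adjusted p 4.16e-06), and 1.34 without Ogt iKO replicate 1. Tet1, Tet2 and Tet3 kept their direction and their call in all 12 alternative analyses of each.

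**Figure D1:**
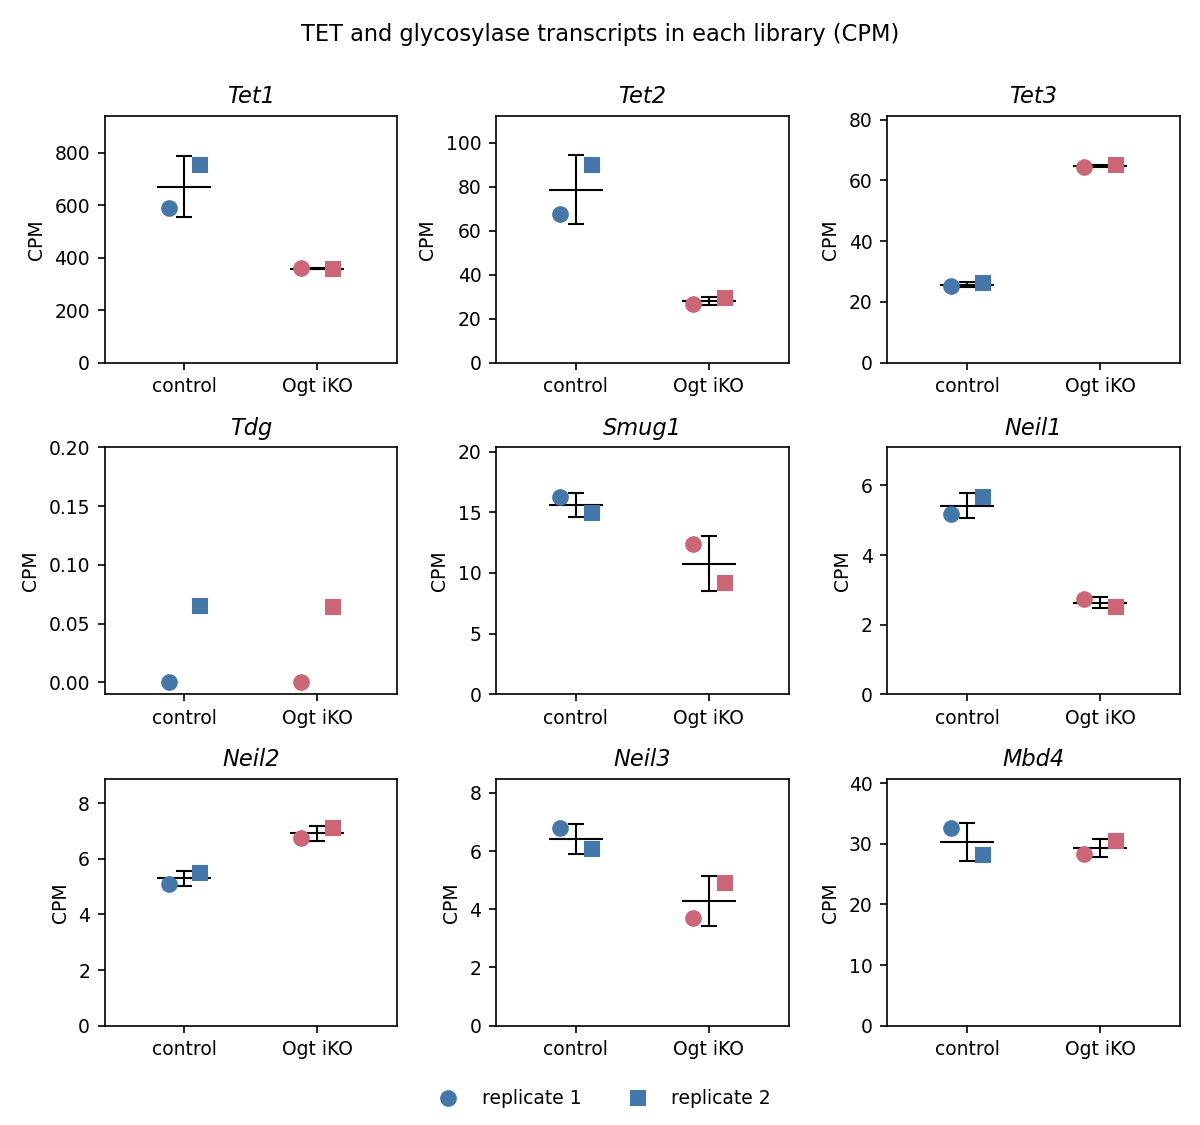
Level of each of the 9 genes in CPM (TMM-scaled), 1 panel per gene on its own linear axis, in control (blue) and Ogt iKO (red). Circles are replicate 1, squares replicate 2, black lines the mean and SD of 2 libraries (not drawn for Tdg, at 0 or 1 count); Tet3 rises from 25.7 to 64.7 CPM while Tet1 falls from 670 to 359 CPM.

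The 2 controls differed in the TET genes that fell. Tet1 was 1.28-fold higher in control replicate 2 than in control replicate 1, and Tet2 was 1.32-fold higher. Of the 758 tested genes within 1 log2 unit of the mean level of Tet1, 0.66% differed more between the controls. For Tet2 the share was 0.947% of 4437 genes. Tet3 differed 1.04-fold between the controls, a gap that 63.9% of 4422 genes of like level exceeded. Between control replicates 1 and 2 the summed level of feeder markers went from 1080 to 1219 CPM, that of stem cell markers was 4568 CPM in each, and that of 2-cell-like markers went from 34.6 to 22.4 CPM. Single feeder markers did not move together between the controls. Only Col3a1 (209 and 297 CPM) and Pdgfrb (5.49 and 7.89 CPM) rose by more than Tet1. The others rose by less, for example Col1a1 (294 and 314 CPM), or fell (Postn, Fbln1 and Twist2). The part of these marker levels in the gap of Tet1 and Tet2 was not tested.

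By the Euclidean distance between log2 CPM profiles over the 4 libraries, each centred on its mean, the tested genes nearest to Tet1 were Deptor (distance 0.069), Ryr1 (0.073) and Ndrg1 (0.077). Those nearest to Tet2 were Cdyl2 (0.080), Platr14 (0.093) and Adam19 (0.12). Those nearest to Tet3 were Ahi1 (0.018), Sema3e (0.028) and Tmtc3 (0.049), whose log2 fold changes ran from 1.32 to 1.37. Only 4 libraries enter each distance, and the genes were chosen on them, so their likeness to the TET genes, the gap between the controls included, is set by the choice.

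Levels of different genes were compared per kilobase of exon (RPKM, from the TMM-scaled counts and the union of GENCODE M21 exons). Tdg, at 0 or 1 count per library, is given no place in the orders that follow. In control the order of the other members by RPKM was Tet1 (43.3), Mbd4 (5.75), Tet2 (4.67), Neil1 (2.90), Smug1 (2.54), Tet3 (1.54), Neil3 (1.16) and Neil2 (1.05). Mbd4 and Tet2, and Neil3 and Neil2, differed by less than the sum of their SDs. In Ogt iKO the order by RPKM was Tet1 (23.2), Mbd4 (5.56), Tet3 (3.87), Smug1 (1.75), Tet2 (1.65), Neil1 (1.41), Neil2 (1.38) and Neil3 (0.773). There Smug1 and Tet2, and Neil1 and Neil2, lay within that spread. Tet3 thus went from the sixth to the third place.

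The make-up of TET transcripts changed with these opposite moves. Tet1 supplied 87.3% and 87.6% of the TET transcripts per length in the 2 controls and 81.1% and 80.4% in Ogt iKO. Tet2 supplied 9.22% and 9.58% in control and 5.47% and 6.05% in Ogt iKO. Tet3 supplied 3.47% and 2.83% in control and 13.4% and 13.6% in Ogt iKO. For each of the 3 genes the Ogt iKO libraries lay outside the range of the controls, and these shares do not depend on how libraries are scaled to each other. Per length, Tet2 exceeded Tet3 by 2.66-fold and 3.38-fold in the controls, and Tet3 exceeded Tet2 by 2.45-fold and 2.24-fold in Ogt iKO. The summed level was 43.5 and 55.5 RPKM in control and 28.8 and 28.7 RPKM in Ogt iKO, a mean of 58.0% of control. A test of 2 libraries against 2 cannot give an exact p below 0.33, so these shares and sums are given as values. The shares moved with the length used, and Tet1 remained the largest share and Tet3 exceeded Tet2 in Ogt iKO under each of the 3 lengths tried.

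**Figure D2:**
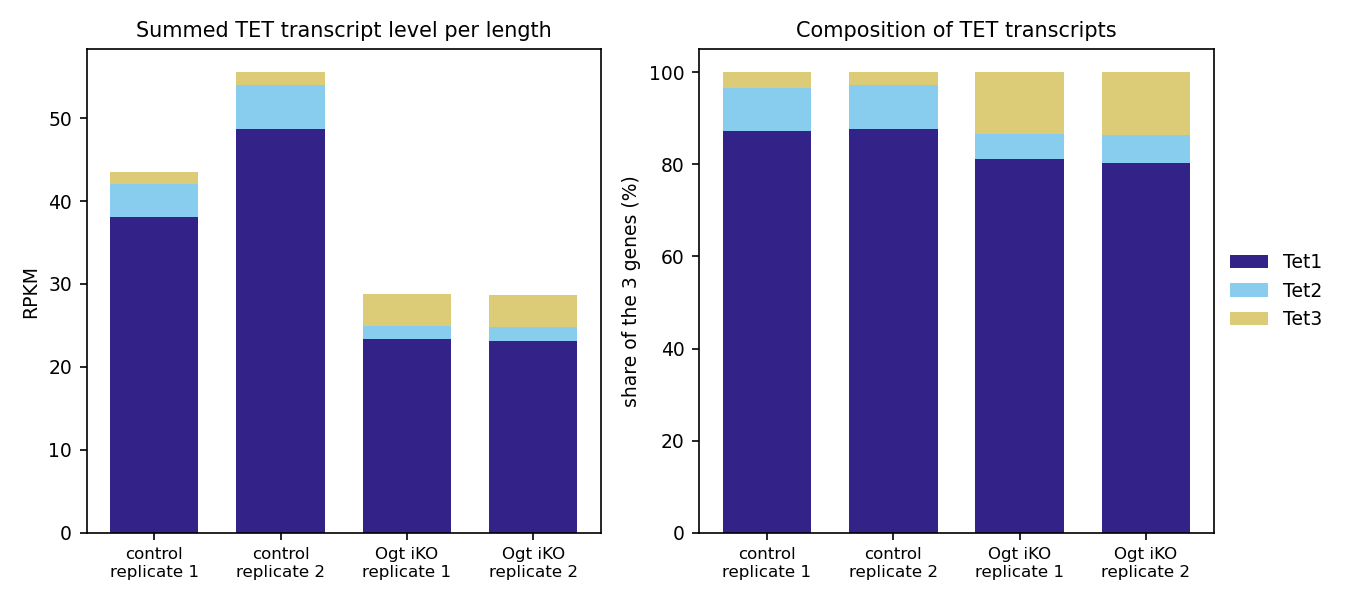
Stacked bars for the 4 libraries: left, RPKM of Tet1, Tet2 and Tet3; right, the share of each gene in their sum in percent. The sum falls from 43.5 and 55.5 to 28.8 and 28.7 RPKM, while the Tet3 share grows from 3.47% and 2.83% to 13.4% and 13.6%.

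Tdg, on chromosome 10 from 82629814 to 82650799, could not be measured. It had 0 and 1 counts in Ogt iKO and 0 and 1 in control, all at or under the 3 counts that a count of 0 allows. Those 3 counts are 0.182 to 0.205 CPM by library totals, without TMM scaling. They cover counting error only, since the reads carry no molecular identifiers. Of the 50-base windows of its longest coding transcript, 66.3% also occur in transcripts of other genes of the GENCODE annotation, 47.4% in the processed pseudogene Tdg-ps alone. For the other 8 genes that share ran from 0 to 7.5%. The listed copy Tdg-ps2 had 0 counts in all 4 libraries. How the authors' counting treated reads that match several places is not given in the sources used here, and whether this set the counts of Tdg was not tested. Such counts say nothing of whether the gene is expressed, and no direction can be given for it.

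Neil1, which acts on oxidised pyrimidines and is described as working beside TDG, lies on chromosome 9 from 57142788 to 57148688. It had 5.17 and 5.67 CPM in control and 2.75 and 2.51 CPM in Ogt iKO, with no overlap between the groups. Its Ogt iKO mean of 2.63 CPM ± 0.166 (SD, n = 2) was 48.6% of the control mean of 5.42 CPM ± 0.356 (SD, n = 2). These values rest on 39 to 87 counts per library. Neil1 had a log2 fold change of -1.04 (SE 0.21, edgeR adjusted p 0.00234) and -1.10 without Ogt iKO replicate 1, and its call held in all 12 alternatives.

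Neil2, on chromosome 14 from 63182439 to 63194154, went the other way without passing the threshold. It had 5.10 and 5.48 CPM in control and 6.73 and 7.09 CPM in Ogt iKO. The groups did not overlap, and the log2 fold change of Neil2 was 0.38 (SE 0.17, edgeR adjusted p 0.0824), and 0.43 without Ogt iKO replicate 1. With libraries scaled by their totals alone it was 0.55, with an adjusted p of 0.0221. Neil3, on chromosome 8 from 53586867 to 53639065 and known from dividing cells, had 6.78 and 6.06 CPM in control and 3.68 and 4.90 CPM in Ogt iKO. The log2 fold change of Neil3 was -0.58 (SE 0.21, edgeR adjusted p 0.0356). This call was lost in 5 of 12 alternatives, and without Ogt iKO replicate 1 the value was -0.38 (edgeR adjusted p 0.174). Without control replicate 2 it was -0.67 (edgeR adjusted p 0.0622).

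Smug1, on chromosome 15 from 103153290 to 103168939, encodes a glycosylase of uracil and 5-hydroxymethyluracil. It had 16.3 and 14.9 CPM in control and 12.4 and 9.15 CPM in Ogt iKO. Ogt iKO replicate 1 was thus the nearer of the treated libraries to the controls. Smug1 had a log2 fold change of -0.53 (SE 0.17, edgeR adjusted p 0.0207). It was -0.76 without Ogt iKO replicate 1, and -0.36 without Ogt iKO replicate 2, where the call was lost. The call of Smug1 was also lost with libraries scaled by their totals alone, and it held in 9 of 12 alternatives. Without control replicate 1 the calls of Smug1 (edgeR adjusted p 0.0935) and Neil3 (0.155) were both lost, leaving Tet1, Tet2 and Neil1 as the lower genes.

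Mbd4, on chromosome 6 from 115840697 to 115853400, encodes a glycosylase that joins a methyl-CpG-binding domain to the removal of thymine from mispairs with guanine. It had 32.6 and 28.2 CPM in control and 28.3 and 30.4 CPM in Ogt iKO, and the groups overlapped. The log2 fold change of Mbd4 was -0.049 (SE 0.099, edgeR adjusted p 0.684), and its sign changed with the scaling. Without Ogt iKO replicate 1 it was 0.0091.

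**Figure D3:**
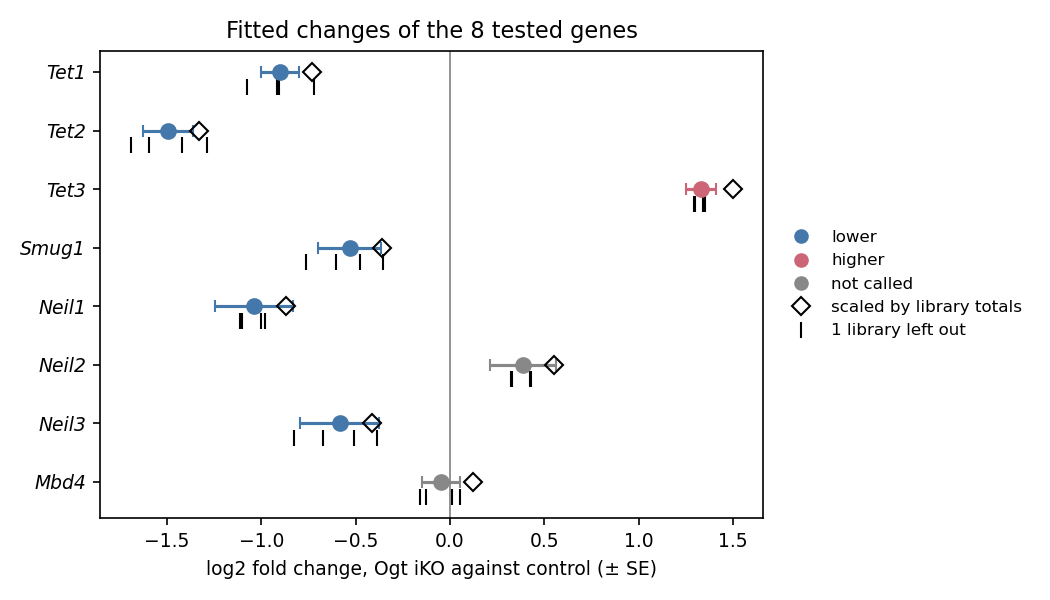
Fitted log2 fold change (Ogt iKO against control) with its SE for the 8 tested genes, coloured by call. Open diamonds are values with libraries scaled by their totals alone and ticks are values with 1 library left out; of the 8 genes, only Mbd4 (-0.049) has values on both sides of 0.

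The other genes of the pathway were read from lists of known genes. Among 5 further DNA glycosylases, 4 fell and 1 did not pass the threshold, with a median log2 fold change of -0.65. Among all genes tested, 32.0% fell and 33.2% rose. Ung, the main uracil glycosylase, fell by 0.71 on the log2 scale, with 107 CPM ± 5.93 (SD, n = 2) in Ogt iKO beside 175 CPM ± 5.08 (SD, n = 2) in control. Mutyh, which removes adenine opposite 8-oxoguanine, fell by 1.11, and Nthl1, a glycosylase of oxidised pyrimidines, by 0.65. Ogg1, the glycosylase of 8-oxoguanine, had a log2 fold change of -0.50, and its call was lost without control replicate 2 (edgeR adjusted p 0.0578). Adjusted p values of these 4 ran from 2.91e-05 to 0.00608 (edgeR). With libraries scaled by their totals alone, the fifth gene, Mpg, passed the threshold upward, at 0.37.

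Of 16 genes that act after the glycosylase, 11 fell, 0 rose and 5 did not pass the threshold (edgeR), with a median log2 fold change of -0.52. The 11 called of 16 are close to the 65.3% called among all genes tested. All 11 fell, where 32.0% of all genes tested fell and 33.2% rose. At an unadjusted p under 0.05, and with DESeq2, 0 of the 16 rose as well, while scaling by library totals alone gave 9 lower and 2 higher. Pcna, the sliding clamp, fell by 0.89 on the log2 scale, Parp2, a sensor of strand breaks, by 0.96, Hmces, which shields abasic sites, by 0.81 and Lig1, a DNA ligase, by 0.76. Pcna had 229 and 225 CPM in control and 121 and 124 CPM in Ogt iKO, and Lig1 had 504 and 499 CPM against 279 and 313 CPM. The 5 that did not pass, named after their values were seen, were Apex2, Polb, Xrcc1, Lig3 and Parg, with log2 fold changes from -0.13 to 0.094. Exons of Apex1, Fen1, Lig3, Mpg and Ogg1 lie to 10.6% or more under exons of the opposite strand, and 31.8% of the 50-base windows of Pcna occur in the pseudogene Pcna-ps2, so their counts are uncertain.

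Among 16 partners and regulators of TET or TDG, 10 fell, 5 rose and 1 did not pass the threshold, with a median log2 fold change of -0.44. Among all genes tested 65.3% were called, 33.2% higher and 32.0% lower. The list includes the deleted gene, and 3 rather than 5 genes rose without Ogt iKO replicate 1, without control replicate 1 or with DESeq2. Oga, which encodes the enzyme that removes O-GlcNAc, fell to 17% of control. Sin3a, the scaffold of a histone deacetylase complex that binds TET1, fell by 1.07 on the log2 scale, from 331 and 336 CPM to 159 CPM in each Ogt iKO library. Nanog, a pluripotency factor that binds TET1 and TET2, fell by 1.47. The next genes were named after their values were seen. Prdm14, described as recruiting TET enzymes, fell by 2.74, from 11.1 CPM in each control to 1.52 and 1.81 CPM. Dppa3, known to shield methylated DNA from TET3 in the zygote, rose by 0.79. The GADD45 proteins are described as linking TET1 to TDG, and their genes did not move together, with Gadd45a falling by 0.91 and Gadd45g rising by 1.19 on the log2 scale. Gadd45b had a log2 fold change of 0.41 (edgeR adjusted p 0.0460), a call lost in 5 of 12 alternatives: with DESeq2, with no filter, and without Ogt iKO replicate 1, Ogt iKO replicate 2 or control replicate 1. Part of the exons of Gadd45a (19.1%) lies under the opposite-strand gene E230016M11Rik, 17.2% of the 50-base windows of Dppa3 occur in the pseudogene Dppa3-ps and 10.1% of those of Oga in the opposite-strand gene Gm15491, so the counts of these genes are uncertain.

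Genes for the cosubstrates of TET enzymes moved both ways. Of 13 genes that supply or remove 2-oxoglutarate, its antagonist 2-hydroxyglutarate or ascorbate, 7 fell, 2 rose and 4 did not pass the threshold, with a median log2 fold change of -0.17. The 9 called of 13 are near the 65.3% of all genes tested. With libraries scaled by their totals alone, 6 fell and 4 rose. Psat1, an aminotransferase of serine synthesis that yields 2-oxoglutarate, fell most in this list, from 753 and 719 CPM to 187 and 181 CPM, or 25% of control. Gpt2, a mitochondrial transaminase, fell by 1.00 on the log2 scale, and Idh3g and Idh3a, subunits of the mitochondrial isocitrate dehydrogenase that uses NAD, fell by 0.92 and 0.56. The 2 genes that rose were named after their values were seen. Idh3b, the other subunit of that enzyme, rose by 0.48, from 126 and 122 CPM to 170 and 175 CPM. Idh1, the cytosolic isocitrate dehydrogenase, rose by 0.58, from 168 and 142 CPM to 235 and 229 CPM.

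**Figure D4:**
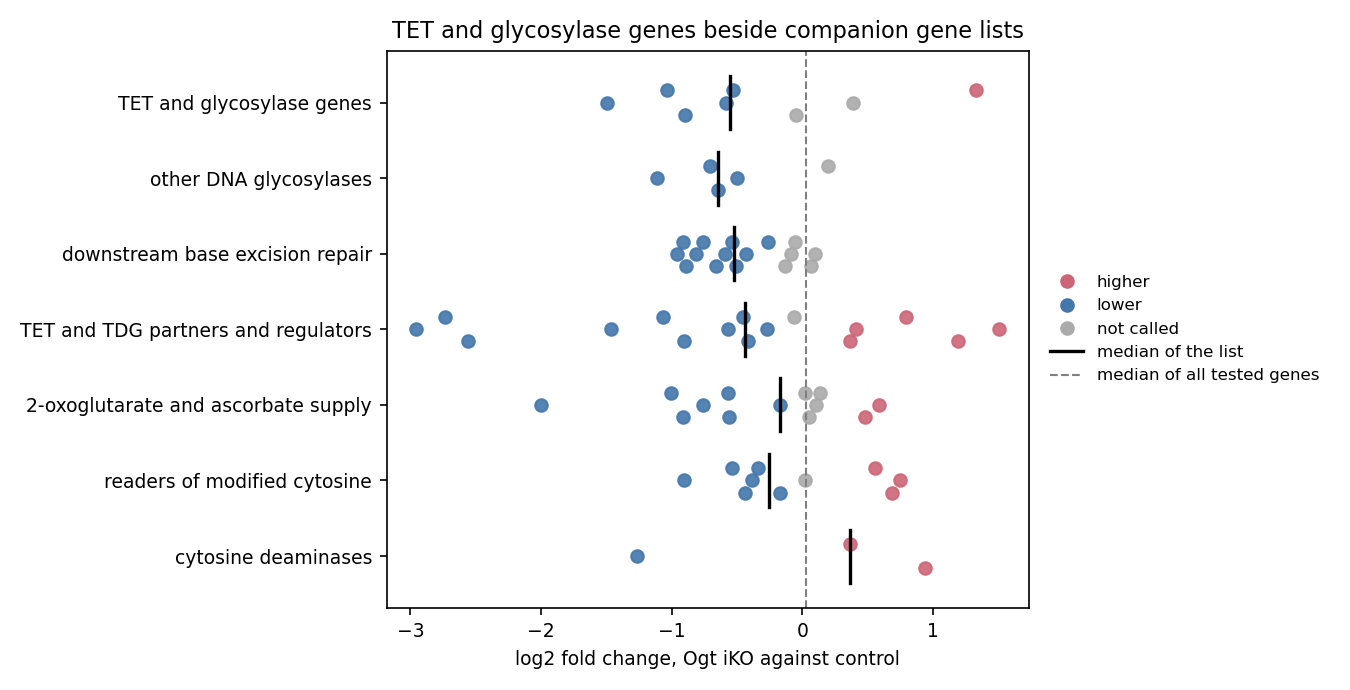
Fitted log2 fold change (Ogt iKO against control) of each tested gene, 1 row per list, coloured by call, with the median of each list as a black bar and that of all tested genes as a dashed line at 0.024. The 16 genes downstream of the glycosylases lie between -0.96 and 0.094, while the TET and glycosylase genes spread from -1.50 to 1.33.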

How the data were processed

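Polyadenylated RNA of 2 Ogt iKO and 2 control libraries was sequenced with a stranded Illumina kit, per the labels' protocols. The authors deposited raw counts per gene symbol for each library. STAR, Picard and mm10 are named in the submitters' processing notes, without versions. The annotation, the strand counted and the handling of reads that match several places are not given in the sources used here. Libraries were grouped by title.

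The fit used edgeR 4.0.16 under R 4.3.3 (quasi-likelihood, TMM, filterByExpr, all 4 libraries, no covariate), with Benjamini-Hochberg adjustment over 14525 genes. Each standard error is the fold change over the root of its F value. CPM uses TMM-scaled sizes of the filtered libraries. Positions are from RefSeq GRCm38, and exon lengths and overlaps from GENCODE M21. A 3-count floor stands for a count of 0, and its CPM uses unscaled library totals. The procedure was run on simulated counts in which a small part of the genes was changed, evenly up and down. That run does not check the scaling, since 65.3% of genes tested were called in these data.

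The genes and lists were chosen with earlier results of these data known. One gene of these lists is not reported here. Named by rule were the members, Ogt, from each list the 4 genes of smallest adjusted p, and the 3 genes nearest to each TET gene at a mean log2 CPM of at least 3. Alternatives were RLE, upper-quartile and total-count scaling, DESeq2 1.42.0, other filters, a robust fit, a replicate block and leaving out each library.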

Additional observations from a re-analysis of the deposited data

How the results depend on the processing

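Scaling by library totals alone raised the log2 fold changes by a median of 0.17 over all genes and moved the members called from 1 higher and 5 lower to 2 higher (Tet3, Neil2) and 3 lower (Tet1, Tet2, Neil1). The split of all calls went from 4827 higher and 4651 lower to 6116 and 3282. Under it, higher counts became 1 for other glycosylases, 2 for downstream repair and 4 for cosubstrate supply, and lower readers became 3. DESeq2 called 3457 genes higher and 3993 lower, 3 regulators higher and 0 APOBEC genes higher. Leaving out 1 library gave 3 to 4 members lower, 3 to 5 regulators higher and 1 to 2 APOBEC genes higher. Mbd4 changed sign (0.12 under totals, 0.0091 without Ogt iKO replicate 1, 0.052 without control replicate 1, with -0.16 without control replicate 2). The cause was not tested.

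Samples share only a replicate number. The correlation over genes of the replicate differences of the 2 groups was 0.086. With the replicate number as a block, 4922 genes were higher and 4719 lower, and the members stayed at 1 higher and 5 lower. With coding length in place of the exon union, the shares of Tet1, Tet2 and Tet3 were 85.6%, 10.7% and 3.77% in control (mean by exon union 87.5%, 9.40% and 3.15%) and 77.7%, 6.42% and 15.9% in Ogt iKO (80.8%, 5.76% and 13.5%). With the longest transcript they were 81.0%, 14.9% and 4.15% in control and 73.5%, 8.96% and 17.5% in Ogt iKO. Counts of 39 to 115 per library limit Neil1, Neil2 and Neil3.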

Other observations

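Transcripts of proteins that bind modified cytosine moved in both directions. Of 10 such genes, 6 fell, 3 rose and 1 did not pass the threshold (edgeR), with a median log2 fold change of -0.26, beside 65.3% called among all genes tested (33.2% higher, 32.0% lower). With libraries scaled by their totals alone, 3 fell and 4 rose. Uhrf1, which brings DNMT1 to hemimethylated CpG, fell by 0.90 on the log2 scale, from 669 and 629 CPM in control to 340 and 353 CPM in Ogt iKO. Part of its sequence (18% of its 50-base windows) occurs in the pseudogene Gm5648. Wdr76, reported to bind 5-hydroxymethylcytosine, fell by 0.44. The methyl-CpG-binding genes Mbd2 and Mbd1 rose by 0.69 and 0.56, Mbd2 from 23.7 and 23.2 CPM to 36.9 and 38.7 CPM.

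Of 4 genes of the APOBEC family, named for cytosine deaminases though not every member is known to act on DNA, 2 rose, 1 fell and 1 was not tested, where 65.3% of all genes tested were called. Without Ogt iKO replicate 1 or without control replicate 1, 1 rose. Apobec3 fell to 41.7% of control, from 80.8 and 79.4 CPM to 32.6 and 34.1 CPM. Apobec2 had a log2 fold change of 0.94 and Apobec1 of 0.36, calls that DESeq2 did not make (adjusted p 0.0897 and 0.139). Apobec4, which had 0 counts in every library, was not tested.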
